A study of Mus musculus with 4 samples.

Results

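Expression of 9 receptor and signaling genes for metabolic hormones was followed across the cell classes of the mouse arcuate nucleus (ARC). They were chosen by name, as the entries of *Lepr*, *Insr*, *Igf1r*, *Irs4*, *Ghsr*, *Glp1r*, *Calcr*, *Acvr1c* and *Socs3* among 31053 measured genes. Single-nucleus RNA sequencing had been done on ARC punches of wildtype male C57BL/6J mice at 10 weeks of age. The DOCA-salt mice had carried a subcutaneous pellet of deoxycorticosterone acetate (DOCA), a mineralocorticoid, and had been offered a NaCl drink beside water for 3 weeks, which is a model of hypertension, and the Sham mice had undergone sham surgery and drunk water. There were 4 libraries, 2 per group, each a pool of nuclei from 2 mice. Every spread between libraries is thus a spread between pools, and animals within a pool cannot be separated. Intervals given within a library cover counting error only.

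Leptin from fat, insulin from the pancreas and ghrelin from the stomach report energy stores and feeding state to the ARC, where AgRP neurons promote feeding and POMC neurons restrain it. The leptin receptor (*Lepr*) acts through JAK2 and STAT3, and *Socs3* encodes an inhibitor that STAT3 induces and that damps leptin signaling in return. The insulin receptor (*Insr*) and the insulin-like growth factor 1 receptor (*Igf1r*) are tyrosine kinases that recruit adaptors such as *Irs4*. *Ghsr* encodes the ghrelin receptor, *Glp1r* the receptor for glucagon-like peptide 1, *Calcr* the calcitonin receptor that forms amylin receptors with RAMP proteins, and *Acvr1c* the type I activin receptor ALK7.

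Of 41649 deposited barcodes, 39176 nuclei were kept, with medians of 2401, 2534, 8215 and 3278 unique molecular identifiers (UMIs, one per counted transcript). Here and below, lists of 4 values run DOCA-salt 1, DOCA-salt 2, Sham 1, Sham 2, and lists of 3 values for AgRP neurons leave out the second of these, DOCA-salt 2. Any pair of libraries shared 5 to 49 barcodes, at most 0.565% of the smaller one. Neurons were gated by the UMIs of *Agrp*, *Pomc*, *Tac2*, *Sst* or *Ghrh*, each nucleus by the peptide with the most UMIs. AgRP neurons are thus nuclei in which *Agrp* exceeded *Sst*, and Sst neurons may include nuclei with *Agrp*. Glial and vascular nuclei were gated by marker lists, and the 1938 nuclei of mixed signal were left out. The *Agrp* gate took 314, 1, 32 and 95 nuclei, and the *Pomc* gate took 217, 19, 34 and 200. DOCA-salt 2 therefore stood apart, with 1.57 CPM of *Agrp* (CPM, UMIs of a gene scaled to 1000000 UMIs of the class or library) over all its nuclei against 52.1 to 209 in the other 3 libraries. All values for AgRP neurons come from those 3 libraries. Gated AgRP neurons held 2348 to 3169 CPM of *Npy*, the peptide they co-release, against 72.8 to 111 in the neurons outside the 5 gates (hereafter other neurons). In the *Tac2* gate of DOCA-salt 2, *Tacr3* (15.3 CPM) and *Pdyn* (43.9 CPM), which mark KNDy neurons, were not above the other neurons (18.7 and 52.5 CPM). *Esr1*, the remaining gene used to check this gate, was above them there (30.5 against 12.1 CPM). Since its check genes were divided in that library, the *Tac2* gate is called by its peptide alone. The check genes of the *Sst* gate were divided there as well. *Dlk1* (338 CPM) was not above the other neurons (357 CPM), while *Otp* was (206 against 68.6 CPM). In DOCA-salt 1, Sham 1 and Sham 2 both genes were above the other neurons. Sst neurons below are the nuclei of this gate. Since droplets also catch free RNA, shares of nuclei with a UMI of a member are set beside those of microglia. The glial gates set no limit on neuronal genes, so microglial values may also hold neuronal transcripts, which was not tested.

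The promoter window of *Socs3* is shown because it alone among the 8 members with a window held the letters that STAT proteins bind, and because *Socs3* and *Lepr* were both highest in AgRP and POMC neurons. The stretch lies on the minus strand of GRCm38.p6 at chr11:117969452-117969616, from 250 to 86 bases before the RefSeq start of the gene. In GENCODE it lies outside exons but inside the span of the gene, in an intron of a longer *Socs3* transcript that starts further upstream. Capitals mark the match to TTCNNNGAA, from 154 to 146 bases before the start.

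*Socs3*: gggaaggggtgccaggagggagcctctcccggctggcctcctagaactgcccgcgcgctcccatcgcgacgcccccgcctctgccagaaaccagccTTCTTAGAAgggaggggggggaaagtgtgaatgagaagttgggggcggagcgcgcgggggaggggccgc

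The 11 RefSeq windows of 300 bases that were on hand covered 8 members, and the other 7 members had no such match on either strand. The same letters stood in 8.30% of all 32851 windows, and the FOXO motif TGTTTAC, present in 3.65%, was in no window of a member. A match is a description of these letters, not a measured binding site.

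*Lepr* was highest in AgRP and POMC neurons (plot of the 6 neuronal members by class). In AgRP neurons it stood at 44.2, 37.8 and 35.4 CPM, in DOCA-salt 1 and both Sham libraries. In POMC neurons it stood at 42.9, 7.69, 34.6 and 19.4 CPM, where the low value of DOCA-salt 2 came from a single UMI in 19 nuclei. The ranges of both classes overlapped, and every AgRP value lay above the other neurons, where *Lepr* stood at 11.8, 3.36, 5.96 and 7.01 CPM. At least 1 UMI of *Lepr* was found in 16.6%, 28.1% and 17.9% of AgRP nuclei. In microglia of the same 3 libraries these shares were 4.5%, 0% and 1.87%, with median depths of 2039.5, 7062.5 and 3869 UMIs against 3403, 10928.5 and 6278 UMIs in AgRP nuclei. After thinning every nucleus to 1000 UMIs the shares were 4.96%, 3.68% and 2.99% in AgRP nuclei and 1.84%, 0% and 0.296% in microglia. *Lepr* is a gene of 97949 bases on the plus strand of chromosome 4 (GRCm38, 101717404 to 101815352).

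Across the cell classes a single edgeR quasi-likelihood fit with the library as a block gave each difference as a log2 fold change. Its p-values were adjusted by Benjamini-Hochberg over 13161 genes. The standard error (SE) given here and below was computed as the absolute log2 fold change over the square root of the F statistic. Of the 9 members, 8 passed the filter on low counts and *Glp1r* did not. Against the other neurons, *Lepr* was higher in AgRP neurons by 2.15 ± 0.28 (adjusted p = 3.41e-08) and in POMC neurons by 1.82 ± 0.29 (adjusted p = 4.84e-06). Both calls stayed in each of the 13 alternative settings that could test *Lepr*. In AgRP neurons 7 of the 8 tested members were called, 6 higher and 1 lower, beside 11% of all genes in that contrast, and the median over the 8 members was 2.03. In POMC neurons 4 were called, all higher, beside 7.97% of all genes, with a median of 0.58.

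**Figure D1:**
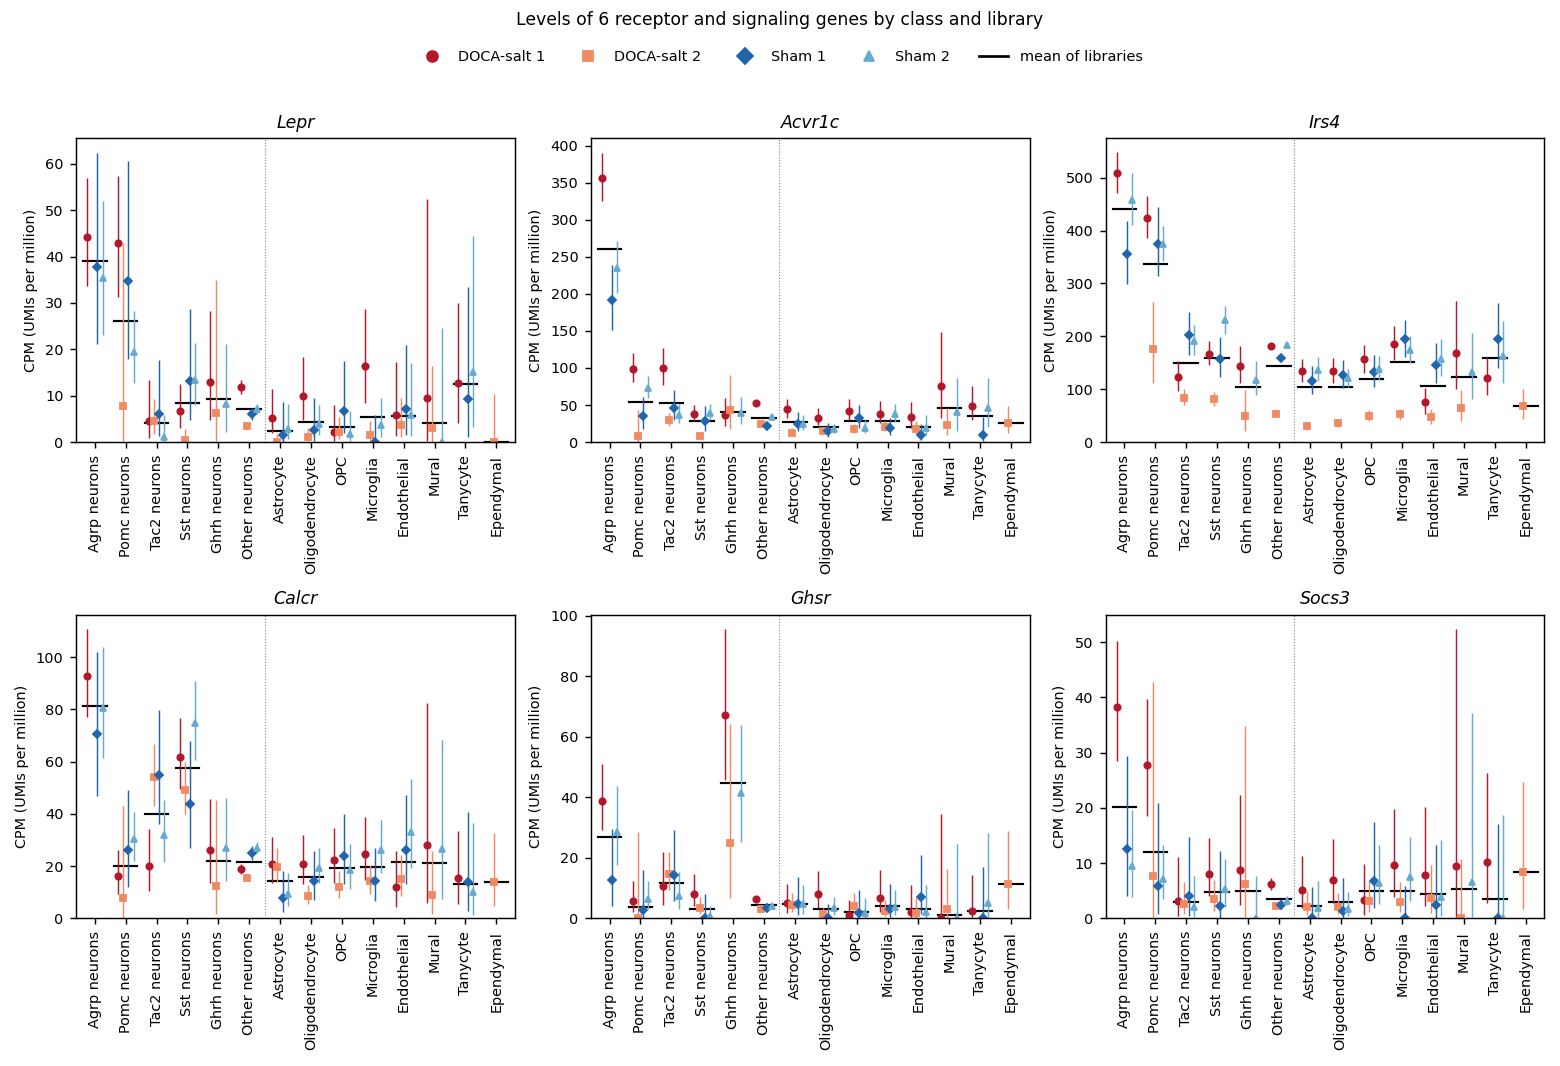
CPM (y axis, linear) of 6 members by cell class (x axis) in the 4 libraries. Points are libraries with at least 10 nuclei of the class, bars are exact 95% Poisson intervals that cover counting error only, black lines are means of libraries, and the dotted line parts neurons from glial and vascular classes. *Lepr*, *Acvr1c*, *Irs4* and *Calcr* have their highest mean in AgRP neurons (39.1, 261, 441 and 81.3 CPM), and *Ghsr* in Ghrh neurons (44.6 CPM).

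*Socs3*, the leptin-inducible inhibitor, followed the order of *Lepr* at its top, with AgRP neurons first and POMC neurons next. In AgRP neurons it stood at 38.2, 12.6 and 9.54 CPM, from 51, 5 and 7 UMIs. In POMC neurons the values were 27.7, 7.69, 5.77 and 7.19 CPM, from 29, 1, 2 and 10 UMIs. DOCA-salt 1 was thus the highest library in both classes, and in other neurons too, at 6.16 CPM against 2.18 to 3.12 CPM. The differences from other neurons were 2.36 ± 0.30 in AgRP neurons (adjusted p = 1.31e-08) and 1.78 ± 0.32 in POMC neurons (adjusted p = 6.72e-05). Both calls stayed in the 12 alternative settings that could test *Socs3*. Without DOCA-salt 1, which held most of these UMIs, and after thinning to 1000 UMIs, *Socs3* was not tested between classes. A *Socs3* UMI was found in 14.3%, 12.5% and 5.26% of AgRP nuclei and in 3%, 0% and 3.74% of microglia of these libraries. Thinned to 1000 UMIs, the shares were 4.75%, 0.780% and 0.670% in AgRP nuclei and 1.39%, 0% and 0.387% in microglia, beside 0.701%, 0.199% and 0.360% of other neurons. Ependymal rather than AgRP nuclei then came first, from 3 UMIs in the 1 library with 10 or more ependymal nuclei. *Socs3* spans 3969 bases on the minus strand of chromosome 11.

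*Acvr1c*, the ALK7 receptor for activins and related ligands, showed the largest difference of the members between AgRP and other neurons. A subcluster of AgRP neurons had been named after this gene in the study of these same samples, so its high level there is not independent evidence. It stood at 357, 191 and 234 CPM in AgRP neurons, against 52.5, 21.5 and 33.4 CPM in the other neurons of these libraries. The next class, POMC neurons, had 99.2, 7.69, 34.6 and 73.3 CPM, so that no POMC value reached an AgRP value. The AgRP difference was 2.80 ± 0.13 on the log2 scale, or 6.95-fold (adjusted p = 5.23e-27), and it was called in each of the 14 alternative settings. UMIs of *Acvr1c* were found in 66.9%, 81.2% and 63.2% of AgRP nuclei, beside 9%, 15.3% and 13.1% of microglia in these libraries. The difference in POMC neurons was 0.93 ± 0.16 (adjusted p = 3.07e-05). That in the *Tac2* gate, where *Acvr1c* stood at 99.5, 29.3, 46.6 and 37.1 CPM, was 0.59 ± 0.17 (adjusted p = 0.0417). The *Tac2* call was lost in 9 of 14 settings, among them without DOCA-salt 1 (0.41, adjusted p = 0.651) and without Sham 1 (0.48, adjusted p = 0.212).

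AgRP nuclei with a *Lepr* UMI were also described apart from those without one. In DOCA-salt 1, *Acvr1c* stood at 456 CPM in the 52 AgRP nuclei with a *Lepr* UMI (95% interval 382 to 540) and at 329 CPM in the 262 without (296 to 366). *Socs3* stood at 27.4 CPM (11.8 to 54.0) in the former and 41.2 CPM (29.8 to 55.5) in the latter, with overlapping intervals. The nuclei with a *Lepr* UMI were deeper, at a median of 4619 against 3222 UMIs, and nuclei of 1 library are not replicates, so no test was made. In Sham 1 and Sham 2 the intervals of *Acvr1c* overlapped between both kinds of nuclei (227 against 176 CPM and 260 against 226 CPM). UMIs of 2 or more of *Lepr*, *Ghsr*, *Calcr* and *Acvr1c* were present in 36.6%, 62.5% and 40% of AgRP nuclei. In other neurons of the same libraries this share was 2.36%, 5.29% and 2.75%, and in microglia it was 1%, 1.39% and 2.34%. In the other gated neuron classes it ran from 6.45% (*Tac2* gate, Sham 2) to 21.1% (*Tac2* gate, Sham 1). Each of these genes was also called higher in AgRP neurons singly, so a high share there follows partly from their single levels. The shares were not thinned, and other neurons had median depths of 2454, 8386 and 3107 UMIs against 3403, 10928.5 and 6278 UMIs in AgRP nuclei.

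*Irs4*, an adaptor of insulin and insulin-like growth factor receptors, was highest in AgRP and POMC neurons. AgRP neurons held 508, 355 and 458 CPM, and POMC neurons held 424, 177, 375 and 375 CPM. The ranges of both classes overlapped. Other neurons stood at 182, 52.4, 160 and 183 CPM, below both classes in every library that could be compared. The differences were 1.39 ± 0.11 in AgRP neurons (adjusted p = 3.14e-15) and 1.22 ± 0.11 in POMC neurons (adjusted p = 8.69e-13), and both were called in each of the 14 alternative settings.

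Outside AgRP and POMC neurons *Irs4* was found in glial and vascular classes too. Microglia held 185, 52.1, 194 and 174 CPM, next to the 182, 52.4, 160 and 183 CPM of other neurons. The median ratio of the glial and vascular classes to other neurons was 0.740, 0.935, 0.872 and 0.755, with single classes between 0.413 (endothelial nuclei of DOCA-salt 1) and 1.29 (ependymal nuclei of DOCA-salt 2; plot of *Irs4* in glia against other neurons). Against the mean of the 6 neuronal classes taken with equal weight, which includes AgRP and POMC neurons, *Irs4* was lower in astrocytes (-0.77 ± 0.12), oligodendrocytes (-0.82 ± 0.11), OPC (oligodendrocyte precursor cells, -0.70 ± 0.12) and endothelial nuclei (-0.81 ± 0.14). These 4 calls (adjusted p = 1.05e-08 to 7.72e-06) stayed in each of the 14 alternative settings. At least 1 UMI of *Irs4* was found in 30.4% of other neurons and 26.0% of microglia of DOCA-salt 1, and in 63.7% and 69.4% of these classes in Sham 1. Thinned to 1000 UMIs, the Sham 1 shares were 14.1% and 17.8%, with microglia at the higher share both times. The part that free RNA, or neuronal nuclei within the glial gates, has in the *Irs4* values of glia and other neurons was not tested. *Irs4* lies on the minus strand of chromosome X (141710998 to 141725263) and overlaps an antisense gene, *Gm15295*, that was also measured.

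**Figure D2:**
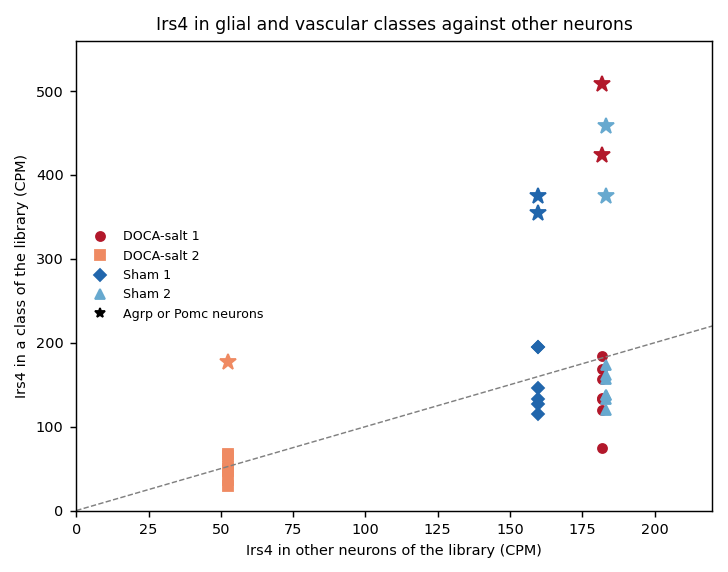
*Irs4* in each class of a library (y axis, CPM) against *Irs4* in the other neurons of the same library (x axis, CPM). Each glial or vascular class with at least 10 nuclei is a point, stars are AgRP and POMC neurons, and the dashed line marks equal levels. Glial and vascular points lie between 0.413 and 1.29 times the level of other neurons, with DOCA-salt 2 at the low end (29.5 to 67.6 CPM), while all AgRP and POMC values lie above it.

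*Insr* was the flattest of the tested members. Its mean level over libraries ranged from 64.8 CPM in ependymal nuclei, from DOCA-salt 2 alone, to 107 CPM in endothelial nuclei. In the latter it stood at 103, 94.6, 81.3 and 149 CPM. AgRP neurons held 86.8, 50.4 and 87.2 CPM, against 88.1, 59.7 and 77.1 CPM in other neurons of these libraries. The AgRP and neuronal values thus overlapped, and in none of the 5 gated neuron classes did *Insr* pass the test against other neurons. Endothelial nuclei were higher than the mean of the 6 neuronal classes by 0.50 ± 0.12 (adjusted p = 0.00105), a call lost without Sham 2 (0.37, adjusted p = 0.0995). Astrocytes were higher by 0.35 ± 0.10 (adjusted p = 0.00280), a call lost without DOCA-salt 2 (0.27, adjusted p = 0.0703). That call was also lost with a glial gate of 2 times and after thinning to 1000 UMIs. *Insr*, on the minus strand of chromosome 8, overlaps the antisense gene *Gm16180*.

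*Igf1r* had its highest level in endothelial nuclei, the only class in which it stood above 200 CPM in every library. The endothelial values were 257, 283, 392 and 301 CPM, and the next class, Ghrh neurons, had 163 CPM in DOCA-salt 1, 100.1 CPM in DOCA-salt 2 and 147 CPM in Sham 2, with no overlap. Endothelial nuclei were higher than the neuronal classes by 1.89 ± 0.10, or 3.70-fold (adjusted p = 2.26e-24), in each of the 14 alternative settings. *Igf1r* UMIs were present in 60.2%, 59.8%, 68.8% and 66.3% of endothelial nuclei and in 26.0%, 29.4%, 51.4% and 30.8% of microglia, whose median depths were 3951.5, 3031, 5580 and 3132 UMIs in the former and 2039.5, 3311.5, 7062.5 and 3869 UMIs in the latter. Thinned to equal depth, the shares were 29.3%, 25.2%, 30.1% and 30.6% against 10.2%, 8.84%, 8.23% and 9.24%. The summed level of 10 astrocyte markers was 2016 to 3170 CPM in endothelial nuclei, 9996 to 11448 CPM in astrocytes and 1091 to 1884 CPM in other neurons. *Igf1r* in astrocytes was 112 to 137 CPM, below each endothelial value. The part of astrocyte signal in the endothelial *Igf1r* values was not tested.

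**Figure D3:**
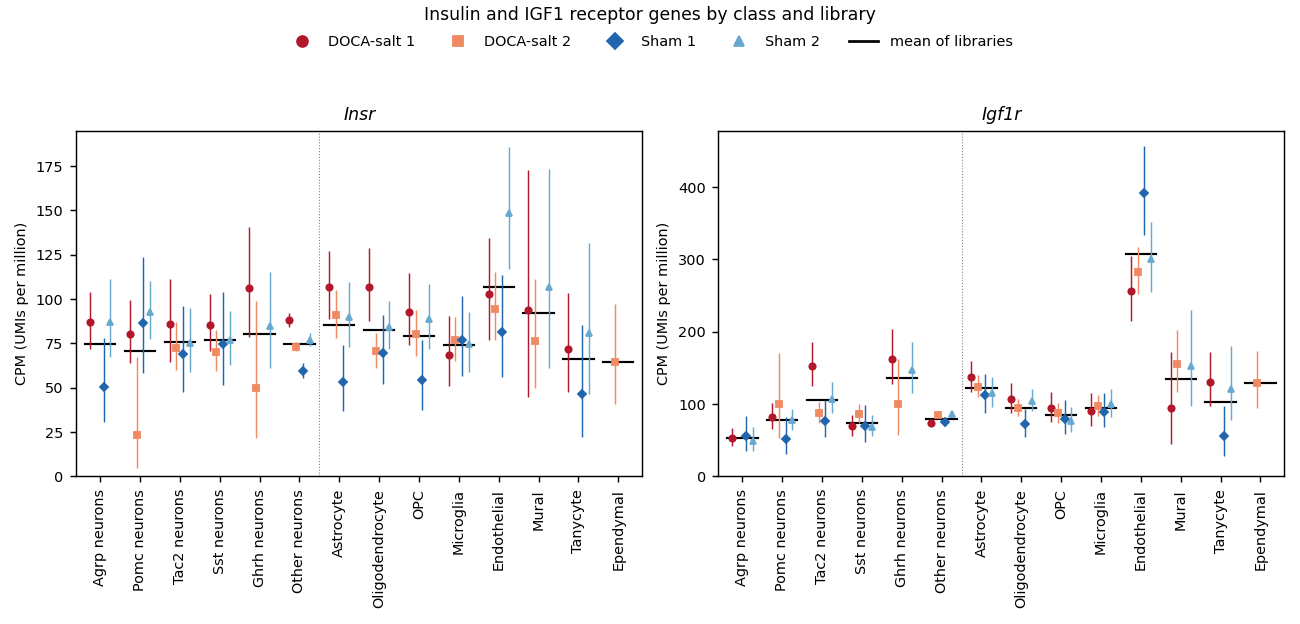
CPM (y axis, linear) of *Insr* and *Igf1r* by cell class (x axis) in each library, with exact 95% Poisson intervals of counting as bars and means of libraries as black lines. *Insr* has similar means in all classes (64.8 to 107 CPM), whereas *Igf1r* in endothelial nuclei (257 to 392 CPM) lies above every other class.

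*Igf1r* was the only one of the 8 tested members called lower in AgRP neurons. It stood at 53.1, 55.4 and 49.1 CPM there, below the 74.2, 74.7 and 86.1 CPM of other neurons in each of the 3 libraries. The difference was -0.65 ± 0.17 (adjusted p = 0.00561), a call lost without Sham 2 (-0.58, adjusted p = 0.115) and after thinning to 1000 UMIs (-0.98, adjusted p = 0.0666). Ghrh neurons were higher by 0.82 ± 0.17 (adjusted p = 0.000862). Without DOCA-salt 1 this difference was 0.67 (adjusted p = 0.0504) and without Sham 2 it was 0.83 (adjusted p = 0.0636), and the call was also lost after thinning (1.11, adjusted p = 0.0610). *Igf1r* spans 280842 bases on chromosome 7, the longest of the 9 genes.

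*Ghsr* was highest in Ghrh neurons, which drive growth hormone release, and next in AgRP neurons. Ghrh neurons held 67.3 CPM in DOCA-salt 1 (31 UMIs), 25 CPM in DOCA-salt 2 (4 UMIs) and 41.4 CPM in Sham 2 (20 UMIs), while the 8 Ghrh nuclei of Sham 1 were too few to use. AgRP neurons held 38.9, 12.6 and 28.6 CPM. Both ranges overlapped and lay above the other neurons (6.34, 3.23, 3.38 and 4.16 CPM). The difference from other neurons was 3.33 ± 0.33 in Ghrh neurons, or 10.1-fold (adjusted p = 9.79e-12), and 2.61 ± 0.29 in AgRP neurons (adjusted p = 1.83e-10), both called in each of the 14 alternative settings. In the *Tac2* gate *Ghsr* stood at 10.7, 14.6, 14.2 and 7.42 CPM, a difference of 1.54 ± 0.32 (adjusted p = 0.00106) that was lost without DOCA-salt 2 (1.12, adjusted p = 0.161). That call was also lost with a peptide gate of at least 10 UMIs and after thinning to 1000 UMIs. Ghrh neurons had 2 of 8 members called, both higher, beside 4.66% of all genes, with a median of 0.13. A *Ghsr* UMI was found in 28.2% of Ghrh nuclei of DOCA-salt 1, 14.8% of DOCA-salt 2 (4 of 27 nuclei) and 30.2% of Sham 2, against 2.50%, 1.24% and 1.87% of microglia. *Ghsr* lies on the plus strand of chromosome 3 and overlaps no other annotated gene.

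*Calcr* was high in AgRP neurons and in neurons of the *Sst* and *Tac2* gates. AgRP neurons held 92.8, 70.5 and 80.4 CPM. Sst neurons held 61.9, 49.2, 43.9 and 74.7 CPM. These ranges overlapped, and both classes lay above the other neurons, at 18.7, 15.6, 24.9 and 27.0 CPM. The differences were 1.91 ± 0.19 in AgRP neurons (adjusted p = 6.07e-12) and 1.502 ± 0.159 in Sst neurons (adjusted p = 1.62e-10), called in each of the 14 alternative settings. *Calcr* was the only member called in Sst neurons, 1 of 8 beside 1.98% of all genes, with a median over members of 0.00. In the *Tac2* gate *Calcr* varied more, at 19.9, 54.1, 54.7 and 31.8 CPM. The difference of 1.04 ± 0.20 (adjusted p = 0.000302) was lost with a peptide gate of at least 10 UMIs, and without DOCA-salt 2 (0.51, adjusted p = 0.311). In that library the summed level of 10 tanycyte markers was 229.7 CPM in the *Tac2* gate against 28.7 CPM in other neurons, while in DOCA-salt 1, Sham 1 and Sham 2 it was 99.5, 40.5 and 78.4 CPM against 65.0, 48.6 and 52.8 CPM. The part of this signal in the *Calcr* and *Ghsr* values of the gate was not tested. The *Tac2* gate had 3 of 8 members called, all higher, beside 2.1% of all genes, with a median of 0.26. *Calcr* lies on the minus strand of chromosome 6 and holds 2 microRNA genes that were not measured.

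*Glp1r* was close to undetected. The 39176 nuclei held 26 UMIs of it in 26 nuclei, of which 17 came from DOCA-salt 1 and none from Sham 1. Other neurons had 10, 2, 0 and 2 UMIs, POMC neurons 3 UMIs in DOCA-salt 1 and none elsewhere, and AgRP neurons none. In the 314 AgRP nuclei of DOCA-salt 1 a count of 0, with 3 counts taken as its limit, allows a share of up to 0.955% of nuclei with a UMI, or 2.25 CPM. *Glp1r* was tested only where the filter on low counts was left out. There edgeR called it in none of the 13 class differences (lowest adjusted p = 0.562) and for treatment in no class (lowest adjusted p = 0.837), with none at an unadjusted p under 0.05. DESeq2 gave *Glp1r* no adjusted p between classes and did not call it for treatment. A difference in *Glp1r* was thus not detectable at this depth.

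Glial classes were set against the mean of the 6 neuronal classes taken with equal weight, so that AgRP and POMC neurons count as much as the far more numerous other neurons. A member that is high in a gated neuron class comes out lower in glia partly by this construction. Astrocytes had all 8 members called, 2 higher and 6 lower, beside 39.8% of all genes, with a median of -0.91. Oligodendrocytes had 6 called, 1 higher and 5 lower, beside 29.3%, with a median of -1.04. OPC had 5 called, all lower, beside 16.3%, and microglia had 4, all lower, beside 10.7%. Endothelial nuclei had 5, 2 higher and 3 lower, beside 13.8%, and tanycytes had 1 lower beside 7.83%. In mural nuclei 0 of 8 were called by edgeR, with 3 at an unadjusted p under 0.05, beside 2.01% of all genes. In ependymal nuclei, which came from DOCA-salt 2 alone, 0 of 8 were called, with 1 at an unadjusted p under 0.05, beside 7.78%.

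*Lepr* was lower in astrocytes (log2 difference -2.08 ± 0.48, adjusted p = 0.000260), where it stood at 5.20, 0, 1.56 and 2.84 CPM, and also in OPC (-1.81) and oligodendrocytes (-1.30). *Acvr1c* was lower in 5 classes, from -0.78 in microglia to -1.28 in oligodendrocytes, and the calls in microglia and endothelial nuclei were lost after thinning to 1000 UMIs (-1.04 and -1.16, adjusted p = 0.0942 and 0.139). Set against other neurons alone, with no test, the median ratio over glial and vascular classes was 0.808, 0.740, 0.773 and 0.736 for *Acvr1c* and 0.799, 0.451, 0.789 and 0.530 for *Lepr*. For *Calcr* it was 1.12, 0.901, 0.572 and 0.716, and for *Socs3* 1.28, 1.39, 0.270 and 1.25. The ratios of *Acvr1c* and *Lepr* were thus under 1 in every library, while those of *Calcr* and *Socs3* lay on both sides of 1. *Igf1r* was higher in astrocytes by 0.71 ± 0.10 (adjusted p = 5.92e-08) at 137, 124, 112 and 115 CPM. Its difference in oligodendrocytes, 0.30, was lost without Sham 2 (0.25, adjusted p = 0.229), with a peptide gate of at least 10 UMIs and after thinning.

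Several of the glial calls were lost for more than 1 choice of the library left out. Those calls were also lost in some settings that kept all libraries, with another gate, tool or size factor or after thinning. *Ghsr* was lower in astrocytes (-0.93), microglia (-1.39) and endothelial nuclei (-1.76). The *Ghsr* call in astrocytes was lost without DOCA-salt 1 (-0.71), DOCA-salt 2 (-0.96) or Sham 2 (-0.94), that in endothelial nuclei without the same libraries (-1.42, -1.52 and -1.63), and that in microglia without DOCA-salt 2 (-1.16) or Sham 2 (-1.38). *Irs4* in microglia (-0.37) was lost without DOCA-salt 2 (-0.28) or Sham 2 (-0.37). *Irs4* in tanycytes (-0.61) was lost without DOCA-salt 1 (-0.37) or Sham 2 (-0.65). *Socs3* in astrocytes (-1.07) was lost without DOCA-salt 2 (-1.11) or Sham 1 (-0.93). The lower values of *Lepr*, *Calcr* and *Acvr1c* in astrocytes were called in every setting that tested them. Against other neurons alone, *Calcr* in astrocytes was higher in both DOCA-salt libraries (20.8 against 18.7 CPM and 19.6 against 15.6 CPM) and lower in both Sham libraries (7.79 against 24.9 CPM and 9.46 against 27.0 CPM). Tanycytes, which line the third ventricle and take part in leptin transport, held *Lepr* at 12.8, 9.28 and 15.2 CPM from 5, 2 and 3 UMIs in the libraries other than DOCA-salt 2, and a difference from neurons was not detectable at this depth.

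**Figure D4:**
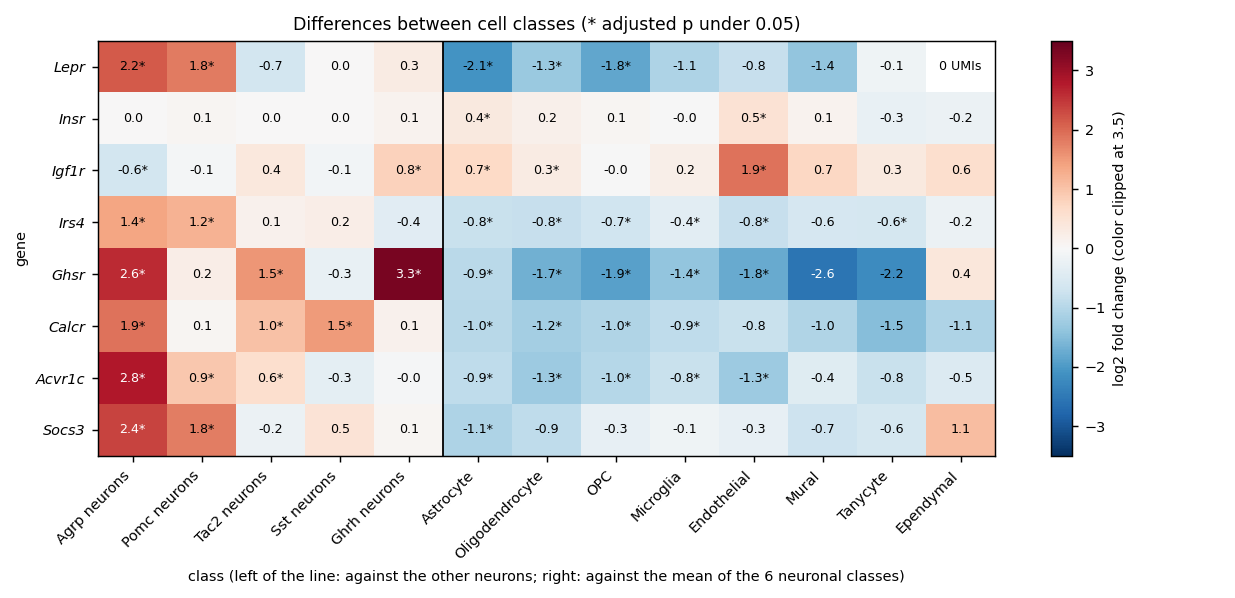
Log2 fold change of 8 members (y axis) in 13 classes (x axis), with gated neurons set against other neurons and glial and vascular classes against the mean of the 6 neuronal classes. Red is higher, blue is lower, and an asterisk marks an adjusted p under 0.05. *Lepr* had 0 UMIs in ependymal nuclei, which gives no fold change. The AgRP column holds 7 asterisks, *Igf1r* is highest in endothelial nuclei (1.9) and *Ghsr* in Ghrh neurons (3.3).

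The other genes of these pathways were counted from a list of 77, of which 70 could be tested between classes. In AgRP neurons 15 were called, 12 higher and 3 lower, which is 21.4% of the list beside 11% of all genes. They included the growth hormone receptor *Ghr* (2.47 ± 0.12), the cytokine signaling inhibitors *Socs2* (1.90 ± 0.16), *Cish* (1.51 ± 0.31) and *Socs1* (1.44 ± 0.33), and lower *Igf1* (-1.82 ± 0.60). In POMC neurons 12 were called (17.1% beside 7.97%), 9 higher, among them *Socs2* (1.67), *Stat3* (1.33), the transcription factor of leptin signaling, and *Ghr* (1.02). In Ghrh neurons 10 were called (14.3% beside 4.66%), 9 higher, with *Foxo1* (2.02), a transcription factor held back by insulin signaling, *Ghr* (1.94) and *Stat5a* (1.57). The *Tac2* gate had 6 called (8.57% beside 2.1%), 5 higher, led by the activin subunit *Inhbb* (2.95), and Sst neurons had 6 (8.57% beside 1.98%), 3 higher, led by *Calcrl* (1.46), the relative of *Calcr* that pairs with RAMP proteins. Of the glial and vascular classes, astrocytes had 28 called, 40% of the list beside 39.8% of all genes, and oligodendrocytes had 26 (37.1% beside 29.3%). OPC had 18 (25.7% beside 16.3%), microglia 12 (17.1% beside 10.7%) and endothelial nuclei 18 (25.7% beside 13.8%). Tanycytes had 7 (10% beside 7.83%), ependymal nuclei 3 (4.29% beside 7.78%) and mural nuclei 0 (beside 2.01%), where 8 had an unadjusted p under 0.05. The share in astrocytes was thus that of all genes, and the share in ependymal nuclei, from DOCA-salt 2 alone, was below it. In endothelial nuclei, where *Igf1r* and *Insr* were highest, the RAMP gene *Ramp2* was higher by 3.98 ± 0.21.

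Likeness of pattern was described by Pearson's r of the mean log level over the 14 classes, which share libraries and depth, among 12636 genes. The genes most like *Lepr* were *Lrch2* (0.948), *Dync1i2* (0.928) and *Samd11* (0.923), and *Lrch2* was also among the 3 most like *Irs4* (0.925). *Lepr* and *Irs4* themselves had an r of 0.892. *Igf1r* was most like *Slco1c1* (0.918), a transporter of the blood-brain barrier, and *Robo4* (0.889), an endothelial receptor. *Insr* was most like *Ly6c1* (0.909), a marker that the endothelial gate used, so the pattern of *Ly6c1* was partly set by that gate. *Ghsr* was most like *Scgn* (0.897). *Calcr* was most like *Tmem255a* (0.913), *Acvr1c* most like *Smc6* (0.903) and *Socs3* most like *Ociad2* (0.930).

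The effect of DOCA-salt was tested within each of the 9 classes that had at least 10 nuclei in every library, which left 50 combinations of member and class. None of the 50 was called by edgeR at an adjusted p under 0.05, 8 had an unadjusted p under 0.05, and the lowest adjusted p was 0.121. DESeq2 called 0. The share of all genes called was 0.157% in POMC neurons, 0.0103% in the *Tac2* gate, 0.0365% in Sst neurons, 0% in other neurons, 0.0652% in astrocytes, 0.0636% in oligodendrocytes, 0.0283% in OPC, 0.0194% in microglia and 0.0346% in endothelial nuclei. With 2 pools against 2, an exact permutation test of a single value cannot go below p = 0.33. In simulated counts of these classes the fit found 16% to 42% of genes changed by 2-fold and 84% to 93% of those changed by 4-fold. The changed genes were drawn at random from all genes past the filter, with a single dispersion per class and equal proportions in all libraries. These shares are thus not those of the members, some of which had few UMIs, nor do they cover a library that stands apart.

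*Irs4* had the lowest p of the members and lower values in DOCA-salt in all 9 classes, from -0.22 ± 0.28 in POMC neurons to -1.39 ± 0.30 in endothelial nuclei (adjusted p = 0.121). Endothelial *Irs4* stood at 75.0 and 46.8 CPM in the DOCA-salt pools and at 146 and 156 CPM in the Sham pools, without overlap. In the other classes it was DOCA-salt 2 that was low, as in other neurons (52.4 CPM against 160 to 183 CPM) and astrocytes (29.5 CPM against 115 to 137 CPM), while DOCA-salt 1 lay among or above the Sham values in 7 of the 8 other classes. The exception was the *Tac2* gate, with 122 and 84.0 CPM in DOCA-salt and 203 and 191 CPM in Sham. Without DOCA-salt 2 the difference was 0.01 in other neurons, 0.00 in astrocytes, -0.07 in microglia and -1.04 in endothelial nuclei. Without DOCA-salt 1 the differences of *Irs4* included -1.14 in POMC neurons and -2.15 in astrocytes. Each of these fits holds a single DOCA-salt pool, assumed to vary as the Sham pools did. Outside endothelial nuclei and the *Tac2* gate, the *Irs4* values thus moved with the library that stood apart in *Agrp*. Whether that library or the treatment set them cannot be told apart. In endothelial nuclei and the *Tac2* gate, DOCA-salt 1 also lay below both Sham pools, and the cause was not tested. With the replicate number as a block, endothelial *Irs4* (-1.40, adjusted p = 0.00881) and oligodendrocyte *Irs4* (-0.96, adjusted p = 0.0274) were called.

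*Calcr* had lower values in DOCA-salt in 8 of 9 classes and a higher one in astrocytes, none of them called. In other neurons it stood at 18.7 and 15.6 CPM in DOCA-salt and 24.9 and 27.0 CPM in Sham, a difference of -0.63 ± 0.17 without overlap (adjusted p = 0.568). Without DOCA-salt 1 this difference was -0.73. In astrocytes it stood at 20.8 and 19.6 CPM in DOCA-salt and 7.79 and 9.46 CPM in Sham, from 24, 40, 5 and 10 UMIs, a difference of 1.14 ± 0.43 (adjusted p = 0.452). Astrocyte and neuronal *Calcr* thus pointed in opposite directions. A test of whether the treatment effect differed between classes called 0 of 8 members, 1 of them at an unadjusted p under 0.05, beside 0.0239% of all genes, with *Calcr* at an adjusted p of 1.00. This outcome changed for *Calcr* without DOCA-salt 1 and for *Irs4* without DOCA-salt 2, where a single DOCA-salt pool was left.

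*Lepr* could be tested for treatment in 3 classes. In Sst neurons it stood at 6.64 and 0.487 CPM in DOCA-salt and 13.2 and 13.4 CPM in Sham, from 9, 1, 6 and 18 UMIs, a difference of -2.10 ± 0.81 that did not pass (adjusted p = 0.789). In POMC neurons the difference was 0.62 ± 0.42 (adjusted p = 0.912) and in other neurons 0.15 ± 0.55 (adjusted p = 0.942). Without DOCA-salt 1, *Lepr* in other neurons turned to -0.95, with a single DOCA-salt pool left. *Acvr1c* in the *Tac2* gate differed by 0.52 ± 0.53, and by 1.24 without DOCA-salt 2. *Insr* lay between -0.43 and 0.38 and *Igf1r* between -0.39 and 0.30 over the 9 classes. For *Insr* in other neurons the interval of 2 SE around the difference ran from -0.15 to 0.55, and for *Igf1r* there it ran from -0.38 to 0.28.

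**Figure D5:**
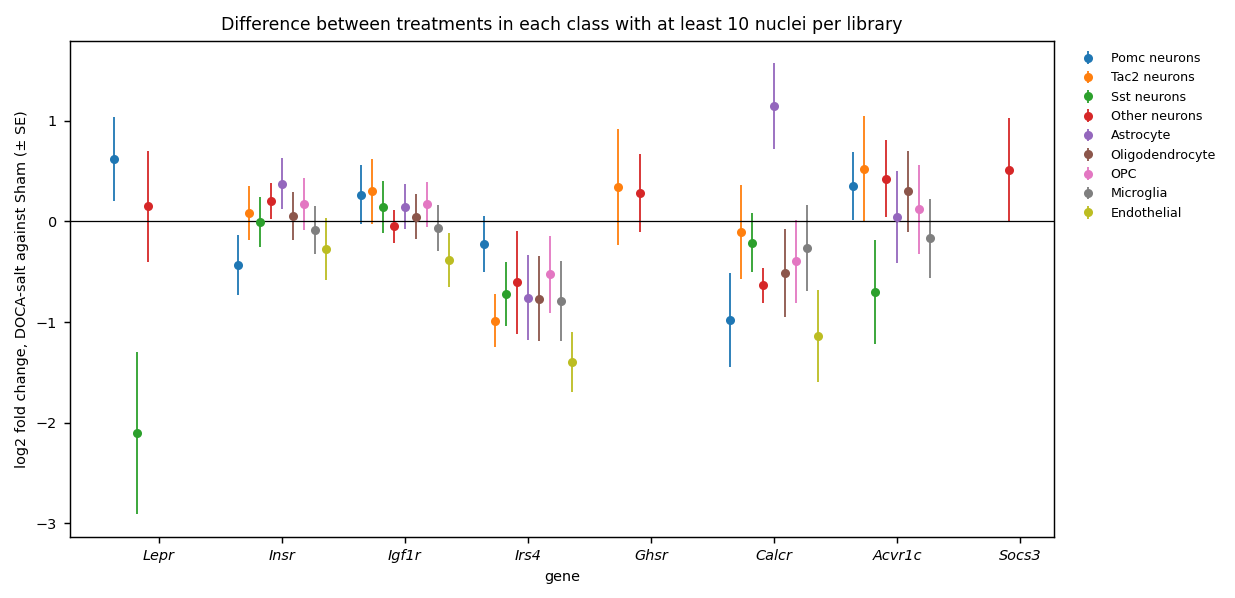
Log2 fold change of DOCA-salt against Sham (y axis, points, with SE as bars) for 8 members (x axis) in the classes named by color. None of the 50 points had an adjusted p under 0.05, and *Irs4* lies below 0 in all 9 classes (-0.22 to -1.39).

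AgRP neurons could be set against treatment only as DOCA-salt 1 against both Sham pools, with the single DOCA-salt pool assumed to vary as the Sham pools did. *Socs3* was at 38.2 CPM against 12.6 and 9.54 CPM, a difference of 1.76 ± 0.50 (adjusted p = 0.0820). *Acvr1c* was at 357 CPM against 191 and 234 CPM, a difference of 0.66 ± 0.24 (adjusted p = 0.287). *Lepr* differed by 0.21 ± 0.33 and *Irs4* by 0.24 ± 0.23. DESeq2 gave *Ghsr*, *Lepr*, *Igf1r* and *Socs3* no adjusted p in AgRP neurons, so it could not call these members whatever their values. None of the 8 members was called by edgeR, 2 had an unadjusted p under 0.05, and DESeq2 called 0, beside 0.684% of all genes by edgeR. Of the pathway list *Prlr*, the prolactin receptor, was called lower there (-1.13 ± 0.27, adjusted p = 0.0156). The same kind of fit in Ghrh neurons, mural nuclei and tanycytes called no member, with none at an unadjusted p under 0.05, beside 0%, 0.169% and 0.641% of all genes. With the filter on low counts, that fit tested neither *Lepr* nor *Socs3* in Ghrh neurons, mural nuclei or tanycytes. In mural nuclei and tanycytes it did not test *Ghsr* or *Calcr* either. Of the pathway list 0 genes were called for treatment in any of the 9 classes with 4 libraries, where 53 to 73 were tested and 1 to 10 had an unadjusted p under 0.05.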

How the data were processed

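Nuclei from ARC punches were captured with the 10x Chromium 3′ kit, and the deposited values are UMI counts per gene and nucleus, which the authors made with Cell Ranger 3.0.1 on GRCm38/mm10. The study's quality metrics list reads mapped to introns and reads antisense to genes apart from reads mapped to the transcriptome. They do not state which of these were counted. Whether reads of an antisense gene entered the values of a member was not tested. UMIs counted near the 3′ end do not allow levels to be compared between genes, and each value is compared only within a gene.

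Nuclei with over 200 and under 7000 genes, under 25000 UMIs and under 15% mitochondrial UMIs were kept, as in the study's methods. A neuropeptide gate required at least 5 UMIs of the peptide, 5 times its share of the library and more UMIs than any other gate peptide. A nucleus with more *Sst* than *Agrp* UMIs could thus not count as an AgRP neuron. The study describes an AgRP subcluster with high *Sst* and modest *Agrp*. How its nuclei fell between the gates was not tested. A glial gate required at least 3 markers and 3 times the list's share. Neurons also required at least 3 genes of a pan-neuronal list, which the glial gates did not use. No clustering and no doublet caller was used. Nuclei that passed more than 1 glial gate, or a glial gate with at least 5 UMIs of a gate peptide, were left out as mixed. Counts were summed per class and library where a class had at least 10 nuclei, and CPM was computed from these sums with exact Poisson intervals. Shares of nuclei have no interval in the text and were also computed after thinning to 1000 UMIs. Tests were edgeR 4.0.16 quasi-likelihood fits (TMM, filter on low counts, Benjamini-Hochberg over all genes, threshold 0.05, two-sided), without a replicate block for treatment. DESeq2 1.42.0, other size factors, gates and filters, thinning, a replicate block and leaving out each library were alternatives. The treatment fit of each tested class, and the class fit for AgRP neurons and endothelial nuclei, were first tested on simulated counts with 200 changed genes. The class fit found 7% of 2-fold and 57% of 4-fold changes in AgRP neurons. In endothelial nuclei it found 30% and 68%. In each simulation the changed genes were drawn at random and all genes shared a single dispersion, so these shares are not those of the members. The other fits were not simulated. Members are named in every class, and of the pathway list at most the 5 called genes of largest change per comparison. The members and lists were chosen with earlier results of these data known. Total deposited UMIs were 45126915, 79437196, 53257230 and 59293582 in DOCA-salt 1, DOCA-salt 2, Sham 1 and Sham 2.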

Additional observations from a re-analysis of the deposited data

How the results depend on the processing

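Of the 46 class calls of members, 25 stayed in every alternative that tested them and 31 when thinning is set aside. Thinned to 1000 UMIs, 22 calls were made among the 78 values still tested, the highest class changed for *Glp1r* and *Socs3*, and no called class difference changed sign in any setting. With a library left out, 37 to 45 class calls of members were made. Treatment calls over all genes were 42, with 199 by DESeq2, 645 without the filter on low counts, 27 with a glial gate of 2 times, 21 with all barcodes, 73 after thinning and 147 to 6171 with 1 library left out, the last without DOCA-salt 1 (1900 without DOCA-salt 2). Treatment calls of members were 0 of 50 tested, beside 42 of 97056 over all genes. Without the filter 1 of 77 was called (endothelial *Irs4*), beside 645 of 160178. Leaving out a DOCA-salt library also gave member calls, all lower without DOCA-salt 1 and higher without DOCA-salt 2. Each of those fits holds a single DOCA-salt pool. *Lepr* in other neurons (0.15) ran from -0.95 without DOCA-salt 1 to 0.78 without DOCA-salt 2. The class by treatment test called 0 members, 1 without the filter (*Calcr*) and 0 to 1 with a library left out. With the replicate block, 2 member calls and 267 calls over all genes were made. Libraries with the same number correlated by -0.224 to -0.0833 in their deviations over 9 classes, and the numbers therefore pair nothing; with 2 pools a group, a crossed pairing, added after seeing the data, gave 2 and 864 calls. The causes of these changes were not tested. The fits on 3 libraries were added after seeing the data as well. Few pools, few nuclei of some gates and 1 to 10 UMIs behind many *Lepr*, *Socs3* and *Ghsr* values limit precision, and intervals cover counting error only.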
